A study of Mus musculus with 15 samples.

Results

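Allele-specific RNA levels of 10 genes that mark the cortical hem were examined in mouse cortical organoids. The genes were taken by name from a table of 44260 genes. They comprise the R-spondins Rspo1, Rspo2 and Rspo3, the Wnt ligands Wnt2b, Wnt3a, Wnt5a and Wnt8b, the bone morphogenetic proteins Bmp4 and Bmp7, and the transcription factor Lmx1a. All 10 had a row, and 8 were abundant enough to test, with Wnt3a and Bmp4 below that limit. The organoids were grown from hybrid SpretB6 epiblast stem cell lines, which carry a genome copy of C57BL/6J (B6), the standard laboratory strain, and a copy of the wild-derived Spret strain of Mus spretus. Organoids were at day 12, as the name of the table has it, and no treatment or genetic change other than the cross is described. There were 3 organoid libraries, titled C1 to C3 and called libraries 1 to 3 here, each with a B6 and a Spret column. The other 12 samples of the series, induced pluripotent stem cells, were not analysed here. The labels do not tell separate cultures or clones from repeats, so p-values cover only the spread among the 3 libraries, which could be technical. The labels do not give the direction of the cross, and the effects of strain and of parental origin cannot be told apart.

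The cortical hem is a strip of dorsal midline tissue at the edge of the developing cortex, between the cortical neuroepithelium and the choroid plexus. It secretes Wnt and Bmp proteins, which pattern the neighbouring cortex, are needed for the hippocampus to form, and act on the choroid plexus. Wnt proteins bind Frizzled receptors and their Lrp5 or Lrp6 co-receptors and stabilise beta-catenin, while R-spondins amplify that signal by removing the ligases Znrf3 and Rnf43 that clear Frizzled from the cell surface. Bmp proteins act through serine and threonine kinase receptors and Smad proteins, with the Id and Msx genes among their usual targets. The hem also gives rise to Cajal-Retzius cells, the neurons that secrete reelin.

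The members lie on different chromosomes, apart from Wnt5a and Bmp4, which share chromosome 14. In the GENCODE M21 annotation of mm10 they are protein-coding genes at chr4:124986430-125009099 (Rspo1, plus strand), chr15:43020794-43170826 (Rspo2, minus), chr10:29452416-29535867 (Rspo3, minus) and chr1:167689237-167848741 (Lmx1a, plus). The Wnt genes lie at chr3:104945272-104961921 (Wnt2b, minus), chr11:59248033-59290752 (Wnt3a, minus), chr14:28504750-28527448 (Wnt5a, plus) and chr19:44493472-44514273 (Wnt8b, plus). Bmp4 lies at chr14:46383520-46390669 (minus) and Bmp7 at chr2:172868012-172940321 (minus). An exon of Rspo1, Rspo3, Wnt5a and Bmp4 overlaps a gene annotated on the opposite strand, and the use of strand in counting is not stated in the sources. Of these partners, Gm12930 (Rspo1) and Gm15217 (Bmp4) read at most 9 in any column. Gm2670 (Wnt5a) read 5, 20 and 11 from B6 and 2, 8 and 3 from Spret in libraries 1, 2 and 3, and Gm48159 (Rspo3) read 17, 9 and 11 from B6 and 15, 8 and 6 from Spret.

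Promoter sequences, from 250 bases before to 50 after the annotated start, were at hand for 6 members from RefSeq (GRCm38.p6). The start used for Wnt2b and for Lmx1a lies inside the gene span given above. The Wnt2b window is thus partly, and the Lmx1a window wholly, within that span. They were searched on both strands for CTTTGA, the core of Tcf and Lef sites through which Wnt signals act, for GGCGCC, a GC-rich element bound by Smad proteins, and for TAATTA, a core shared by many homeodomain proteins. These motifs are found in 16.0%, 11.9% and 5.29% of 32851 promoters of this length. The 4 shown first belong to the genes, among the 6 with a promoter in the table, whose level stood at least 2 times higher in library 1, and Wnt2b follows as a gene whose level did not. Each runs 5′ to 3′ along the gene, and capitals mark a motif.
Wnt8b, chr19:44493222-44493521, plus strand: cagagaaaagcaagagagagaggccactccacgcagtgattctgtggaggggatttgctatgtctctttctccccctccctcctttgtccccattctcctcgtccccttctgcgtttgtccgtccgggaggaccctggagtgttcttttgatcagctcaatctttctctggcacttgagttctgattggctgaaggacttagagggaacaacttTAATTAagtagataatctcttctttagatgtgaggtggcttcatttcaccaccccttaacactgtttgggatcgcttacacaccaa
Lmx1a, chr1:167689308-167689607, plus strand: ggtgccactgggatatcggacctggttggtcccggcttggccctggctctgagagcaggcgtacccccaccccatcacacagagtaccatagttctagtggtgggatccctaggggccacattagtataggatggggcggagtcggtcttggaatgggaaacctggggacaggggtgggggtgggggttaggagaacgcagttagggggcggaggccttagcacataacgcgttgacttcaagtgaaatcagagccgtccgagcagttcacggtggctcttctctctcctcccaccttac
Bmp4, chr14:46390620-46390919, minus strand: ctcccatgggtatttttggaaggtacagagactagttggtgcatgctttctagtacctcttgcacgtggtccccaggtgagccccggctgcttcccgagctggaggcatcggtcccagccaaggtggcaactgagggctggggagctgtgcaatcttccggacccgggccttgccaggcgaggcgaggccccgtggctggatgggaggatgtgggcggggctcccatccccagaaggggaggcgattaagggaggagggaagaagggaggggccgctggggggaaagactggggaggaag
Wnt3a, chr11:59290702-59291001, minus strand: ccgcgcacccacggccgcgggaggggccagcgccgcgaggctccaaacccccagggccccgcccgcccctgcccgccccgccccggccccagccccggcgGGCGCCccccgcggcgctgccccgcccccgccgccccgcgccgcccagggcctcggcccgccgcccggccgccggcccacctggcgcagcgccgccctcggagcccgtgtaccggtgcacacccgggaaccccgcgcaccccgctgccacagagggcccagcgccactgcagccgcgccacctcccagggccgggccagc
Wnt2b, chr3:104961660-104961959, minus strand: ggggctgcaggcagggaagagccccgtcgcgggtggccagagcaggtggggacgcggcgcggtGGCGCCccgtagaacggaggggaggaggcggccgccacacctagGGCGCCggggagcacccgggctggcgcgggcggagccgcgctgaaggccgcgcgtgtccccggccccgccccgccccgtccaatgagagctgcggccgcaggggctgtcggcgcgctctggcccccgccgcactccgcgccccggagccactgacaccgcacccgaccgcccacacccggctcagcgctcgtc
Wnt8b held TAATTA 36 bases before its start, Wnt3a held GGCGCC at 150 bases before, and Wnt2b held GGCGCC at 187 and 143 bases before. Rspo1, not shown, held GGCGCC at 9 bases before its start. None of the 6 windows held CTTTGA, and the Lmx1a and Bmp4 windows held none of the 3 motifs. Their base composition varied widely, from 48.3% G and C in Wnt8b and 59.3% in Lmx1a to 86.3% in Wnt3a. The Wnt2b matches lie before the start used for its window but inside the gene span given above. A match of letters is a description, not a site.

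Values are allele-assigned read numbers per gene, normalised and rounded by the authors. The columns of a library summed to between 4.50M and 5.67M, and 1 read was worth an estimated 1.16, 1.28 and 0.672 in libraries 1, 2 and 3, as read from how often each whole number occurs. Genes of the cortex were abundant, with the neuronal transcription factor Neurod6 at 4730, 4871 and 3177 summed over both alleles. Labels name epiblast stem cells as the tissue, and of the pluripotency genes Nanog summed to at most 5 and Pou5f1 to 57, 63 and 13. Nearly all of the Pou5f1 sum came from the B6 column, as the Spret column held 0, 4 and 0.

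Hem genes split into 2 sets by their level. Rspo2, Rspo3, Wnt3a, Wnt8b, Lmx1a, Bmp4 and Bmp7 stood at least 2 times higher in library 1 than in the mean of libraries 2 and 3. Rspo1, Wnt2b and Wnt5a did not. The first set holds 5 of the 8 tested genes, whereas 0.676% of the 15985 tested genes differed at least 2 times in this way. At the 1.5-fold mark used below the same genes pass, against 3.32% of all tested genes. The hem genes were chosen with earlier results of these data known, so this contrast and those below are descriptions and not independent support. The 3 libraries belong to 1 group, so these differences are between single replicates and are described with no test. In bulk RNA, a smaller number of cells of a type and less RNA per cell cannot be told apart.

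Among the R-spondins, Rspo3 summed to 398, 212 and 149 in libraries 1, 2 and 3, a mean of 253 ± 129 (SD, n = 3). Library 1 was 2.20 times the mean of the other libraries. Rspo2, which also acts in limb and lung growth, summed to 144, 64 and 66, a 2.22-fold difference by the same measure. Rspo2 was alike in libraries 2 and 3, while Rspo3 was also higher in library 2 than in library 3. Rspo1 summed to 108, 94 and 77, so library 1 was 1.26 times the mean of the others.

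Of the Wnt ligands, Wnt8b, whose expression in the forebrain is centred on the hem and hippocampal region, summed to 52, 26 and 25, a 2.04-fold difference. Wnt3a, the ligand needed for the hippocampus to form, summed to 26, 8 and 7, a 3.47-fold difference. At estimated totals of 22, 6 and 10 reads, Wnt3a rests on few reads. Its excess in library 1 came from the B6 column, with 21, 3 and 2, while the Spret column held 5 in each library. Wnt2b summed to 40, 39 and 40 and Wnt5a, a ligand of mainly beta-catenin-independent signalling, to 97, 105 and 84. These 2 ligands differed between libraries by 1.03 times and 1.25 times from lowest to highest, and neither was highest in library 1 alone.

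The transcription factor Lmx1a, which marks and specifies the hem and roof plate, summed to 114, 57 and 52, a 2.09-fold difference. Bmp7 summed to 114, 39 and 31, with library 1 at 3.26 times the mean of the others. Bmp4, a hem and choroid plexus ligand, summed to 21, 11 and 4, a 2.80-fold difference that rests on an estimated 18, 9 and 6 reads. Values of this size are near those of genes of other tissues, since the endoderm genes Gata4 and Gata6 summed to between 6 and 32.

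**Figure D1:**
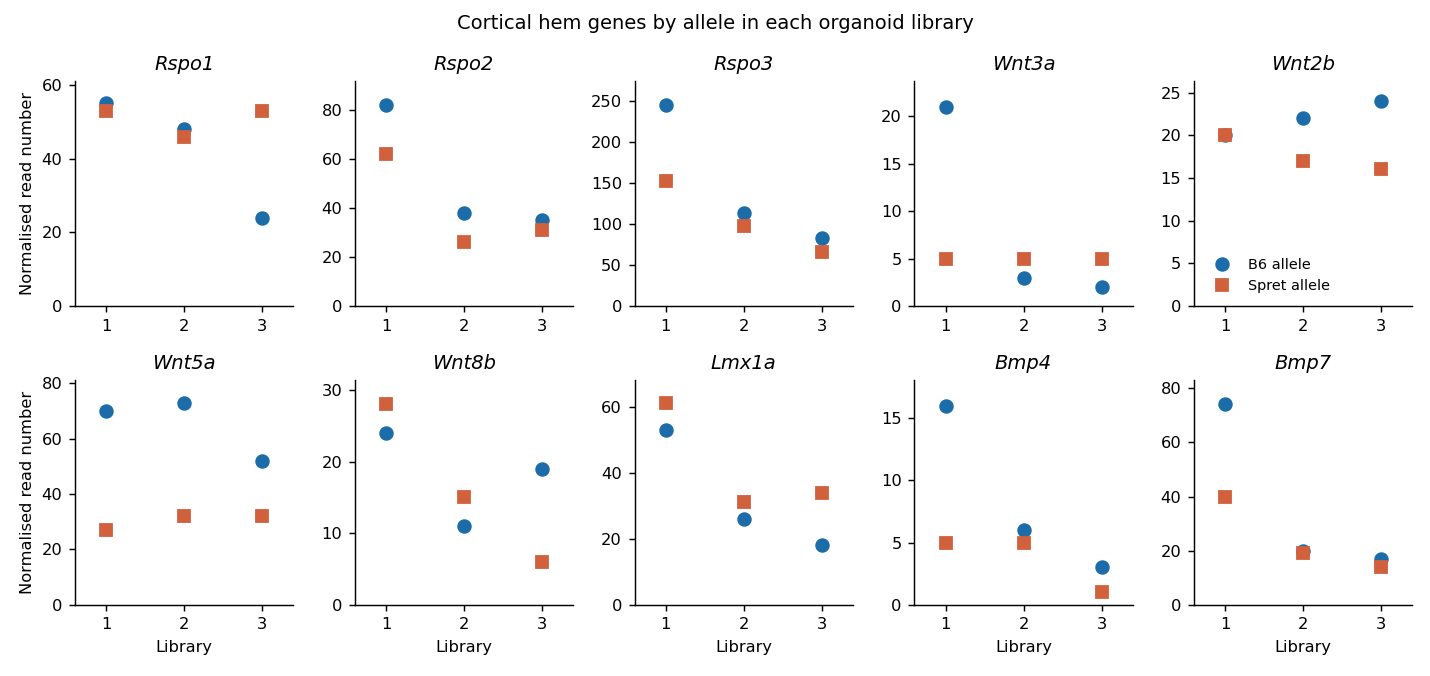
Normalised read numbers of the 10 genes, with a panel per gene, libraries 1 to 3 on the horizontal axis, circles for the B6 allele and squares for the Spret allele; vertical scales differ between panels. Library 1 is highest in both alleles for Rspo2, Rspo3, Wnt8b, Lmx1a and Bmp7, whereas the sums of Wnt2b and Wnt5a differ little, and Wnt5a keeps its B6 value above its Spret value in all 3 libraries.

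Of the 8 tested hem genes, 6 were highest in library 1, against 23.5% of all tested genes. At least 1.5 times the mean of libraries 2 and 3 was reached by 5 of the 8, Rspo2, Rspo3, Wnt8b, Lmx1a and Bmp7, against 3.32% of all tested genes. Each of the 5 also passed this mark in the B6 column and in the Spret column on its own, against 1.35% of all tested genes. The median over the tested hem genes was 2.07 and over all tested genes 0.984. In the B6 column the differences of these 5 genes ranged from 1.60-fold (Wnt8b) to 4-fold (Bmp7), and in the Spret column from 1.87-fold (Rspo3) to 2.67-fold (Wnt8b).

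Genes of the choroid plexus were also higher in library 1. All 10 tested choroid plexus genes of a list of 12 stood at least 1.5 times higher in library 1, with a median of 3.45-fold. Summed over the list they read 3586, 1001 and 609, and none was at 0 in all columns. Ttr, the thyroid hormone carrier made by choroid plexus, differed 5.96-fold, Foxj1, a regulator of motile cilia, 3.32-fold, and Enpp2, the secreted lysophospholipase autotaxin, 1.90-fold. The part of choroid plexus cells in the hem gene levels was not tested. Mesenchyme and meningeal genes, which mark cells that can also express Wnt, R-spondin and Bmp genes, read 513, 541 and 483 over 11 genes. None of the 8 tested ones stood 1.5-fold higher in library 1, with a median of 1.01, while Twist1 and Col1a2 were lower, at 0.462 and 0.609. Dcn, Pdgfra and Prrx1 stood at 1.05, 1.36 and 1.01. Cajal-Retzius genes read 2540, 1610 and 2214. Of 10, 2 stood at least 1.5-fold higher, Reln at 1.68 and Trp73 at 1.92, while Calb2 was lower, at 0.505. Nr2f2 and Cacna2d2 stood at 0.809 and 1.03. Cortical progenitor genes read 7351, 6303 and 6442 and cortical neuron genes 17096, 16992 and 16760, with none of 9 and none of 7 at least 1.5-fold higher, and Tbr1 among the neuron genes lower, at 0.660. Genes of the ventral telencephalon read 310, 246 and 291, posterior neural genes 506, 392 and 311, and endoderm genes 144, 168 and 102 over their lists. Much of the posterior sum came from 1 gene, Lhx9, at 412, 270 and 254. Cxcr4 gave 98, 70 and 76 of the endoderm sum. These 2 sums thus do not show how the other genes of their lists differed between libraries.

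In the other 10 pathway lists the median fold of tested genes, library 1 over the mean of the others, ran from 0.76 to 1.38. Of 5 tested further Wnt ligands none differed by 1.5-fold in either direction, and the one of highest summed value, Wnt7b, a ligand of the cortical neuroepithelium, summed to 287, 248 and 267. None of 4 further Bmp and Gdf ligands stood 1.5-fold higher in library 1, with Bmp6 at 1.37. Of 7 tested Wnt target genes, 5 were highest in library 1 and none reached 1.5-fold. The feedback inhibitor Axin2 summed to 613, 381 and 477, the transcription factor Lef1 to 341, 266 and 241, and Apcdd1, a membrane inhibitor of Wnt signalling, to 660, 432 and 449. Of 6 tested Bmp targets, 5 were highest in library 1 and 3 reached 1.5-fold. These were Id1, at 52, 22 and 14, Msx1, a homeodomain factor of the dorsal midline, at 47, 22 and 14, and Smad9 at 30, 16 and 24. Among 15 patterning factors, Zic1, Zic4 and Zic5 passed 1.5-fold, at 2.10, 2.49 and 2.19. Of 7 tested Bmp inhibitors 3 did, Sostdc1, Grem1 and Bmper. Among 14 Wnt receptors the one gene to do so was Fzd10, a Frizzled receptor, at 46, 29 and 24. No R-spondin receptor or ligase and no Bmp receptor stood 1.5-fold higher. Lower in library 1 by at least 1.5-fold were Lgr6, an R-spondin receptor, at 0.657, the Frizzled receptor Fzd5 at 0.551, the ligand Gdf10 at 0.595, the receptor Bmpr1b at 0.603 and the antagonist Chrd at 0.641. Zic1, Zic4, Zic5, Sostdc1, Grem1, Bmper, Fzd10, Id1, Msx1, Smad9, Bmp6, Lgr6, Fzd5, Gdf10, Bmpr1b, Chrd, Twist1, Col1a2, Trp73, Calb2 and Tbr1 were named after their values were seen.

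**Figure D2:**
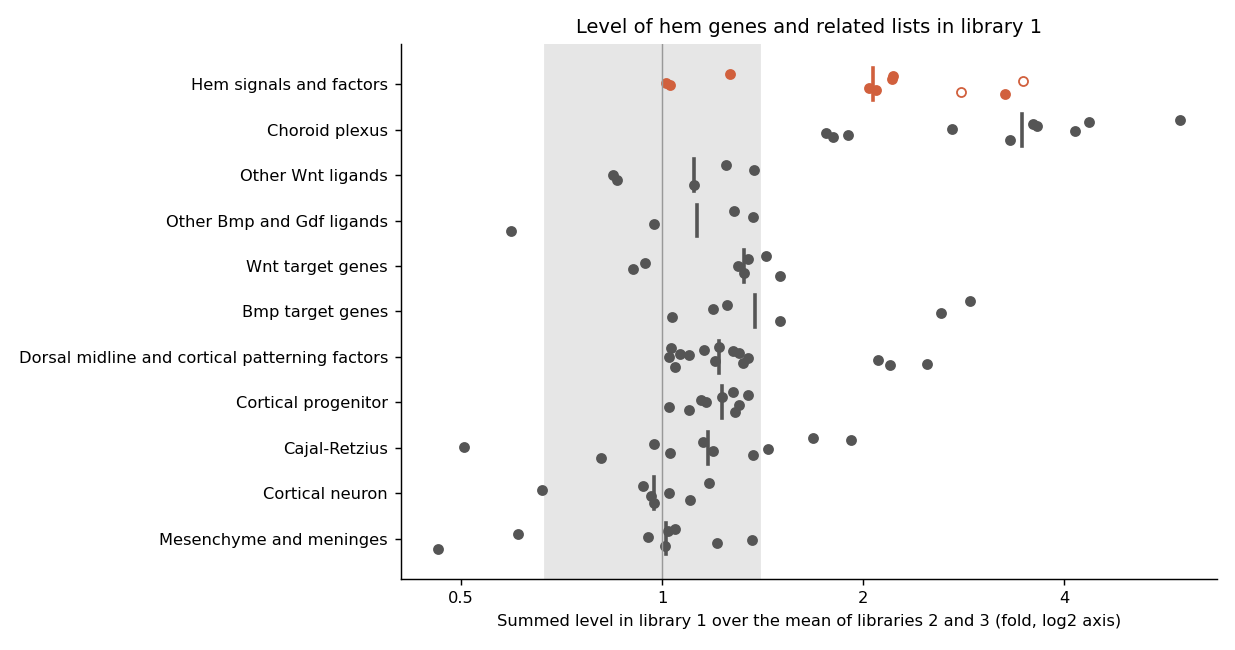
Summed level in library 1 over the mean of libraries 2 and 3 (fold, log2 axis) for each gene of the hem set and of 10 lists; filled points are tested genes, open points the 2 hem genes below the limit, bars the medians of tested genes, and the grey band spans the 5th to 95th percentile of all tested genes, 0.667 to 1.40. Hem genes split between a set from 1.01 to 1.26 and a set from 2.04 upward, and all tested choroid plexus genes lie above the band.

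The gene outside the set whose levels over the 3 libraries lay nearest to the median profile of the 8 tested hem genes was Wls, the membrane carrier that brings Wnt proteins to the cell surface. Wls summed to 169, 95 and 83. Its distance, the Euclidean distance of centred log2 levels, was 0.0834, among 9231 genes with a mean summed level of at least 100. Gm17606, Lrriq1, the transcription factor Tfap2b and the collagen gene Col11a1 followed at distances of 0.106, 0.107, 0.112 and 0.139. With 3 libraries such a profile separates genes poorly. In all, 73 genes lay nearer to it than the median tested hem gene did, at 0.415.

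The share of reads from the Spret allele was then set beside the summed level. Over all hem genes together the Spret share was 40.8%, 44.9% and 48.2% in libraries 1, 2 and 3, where their summed levels were 1114, 655 and 535. Over the whole table the share was 46.4%, 46.4% and 46.6%. The pooled Spret share was therefore lowest where hem genes were most abundant, but single genes differed in this. A library of highest level also had the lowest Spret share in 3 of the 8 tested hem genes, Rspo3, Lmx1a and Bmp7, against 29.2% of all tested genes, and in Wnt3a and Bmp4. For 8 genes, a count of 3 is near that share. Level and share are computed from the same columns, so an excess of B6 reads raises the one and lowers the other. With 3 libraries no correlation was computed.

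Bmp7 came from Spret at 35.1%, 48.7% and 45.2%, with B6 values of 74, 20 and 17 and Spret values of 40, 19 and 14. Its share in library 1 was 11.9 points below the mean of the other libraries. Rspo3 came from Spret at 38.4%, 46.2% and 44.3%, a difference of -6.82 points, with B6 values of 245, 114 and 83 and Spret values of 153, 98 and 66. Among all 2973 tested genes of a mean summed level from 200 to 400, this difference ran from -7.70 to 7.97 points between the 5th and 95th percentiles. Among the 2766 genes from 50 to 100, the range of Bmp7, it ran from -15.2 to 15.2. Both genes lay within those ranges.

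Among the 5 tested hem genes that differed at least 2-fold in level, Rspo2 had the smallest difference in share. It came from Spret at 43.1%, 40.6% and 47.0%, with 82, 38 and 35 from B6 and 62, 26 and 31 from Spret, so the share in library 1 was 0.742 points below the mean of the others. Lmx1a came from Spret at 53.5%, 54.4% and 65.4%, with library 3 apart from the other libraries. Its values were 53, 26 and 18 from B6 and 61, 31 and 34 from Spret. Wnt8b was at 53.8%, 57.7% and 24.0%, with 24, 11 and 19 from B6 and 28, 15 and 6 from Spret. Its 2 libraries of low level thus had shares on opposite sides of equal alleles at nearly equal sums. These shares rest on few reads, an estimated 20 and 37 in libraries 2 and 3.

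In genes of steadier level the share differed as well. Rspo1 was at 49.1%, 48.9% and 68.8%, since its B6 value in library 3 was 24 against 55 and 48, while its Spret values were 53, 46 and 53. Wnt2b was at 50%, 43.6% and 40.0% and Wnt5a at 27.8%, 30.5% and 38.1%. The SD of the share over libraries was 3.20 points in Rspo2, 4.05 in Rspo3, 5.07 in Wnt2b, 5.33 in Wnt5a, 6.62 in Lmx1a, 7.07 in Bmp7, 11.4 in Rspo1 and 18.4 in Wnt8b. Over all tested genes with a mean summed level from 20 to 50 the median SD was 9.26 points with an upper quartile of 13.3, and from 50 to 100 it was 5.99 with an upper quartile of 8.70. Wnt8b and Rspo1 exceeded the upper quartile of genes of their level. Of the 2 untested genes, Wnt3a came from Spret at 19.2%, 62.5% and 71.4%, and Bmp4 at 23.8%, 45.5% and 25%.

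**Figure D3:**
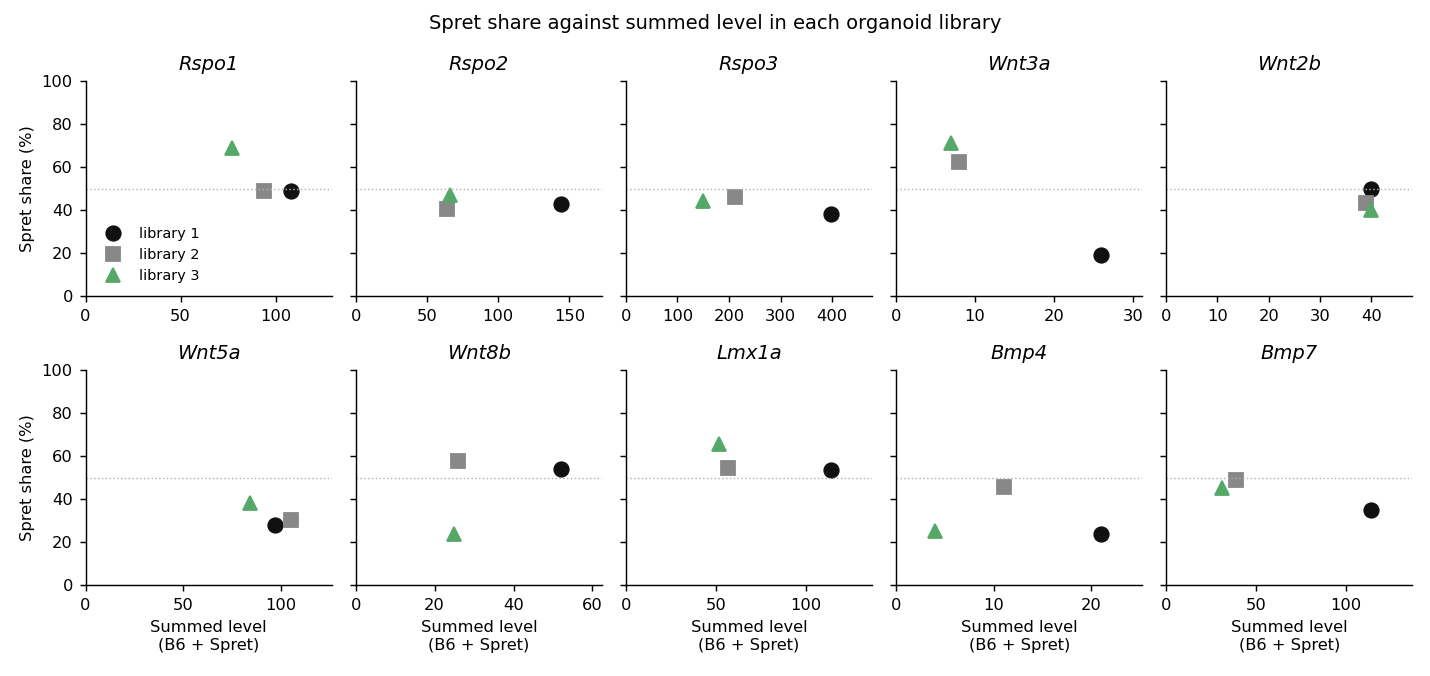
Spret share (percent of both alleles) against summed level (normalised read number), with a panel per gene and a point per library; the dotted line marks equal shares and horizontal scales differ. In Rspo2 library 1 lies far to the right at nearly the same height, in Bmp7 and Rspo3 it lies right and lower, and Wnt5a stays below 50% at every level.

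The alleles themselves were compared within libraries. Wnt5a was higher from B6, at 70, 73 and 52 against 27, 32 and 32 from Spret, so its allele groups did not overlap. Its log2 ratio of Spret to B6 was -1.06 ± 0.22 (SE, limma adjusted p = 0.00166), or 2.09-fold. Rspo3 was also higher from B6, in 3 of 3 libraries, with a ratio of -0.41 ± 0.13 (limma adjusted p = 0.0334). These 2 of 8 tested hem genes were called, both toward B6, where 22.8% of all tested genes were called, and none was called toward Spret, against 7.56%. The share called is near that over all genes in either direction, 30.4%. All tested genes had a median ratio of -0.14, toward B6. Any part of read alignment or allele assignment in ratios toward B6 was not tested. B6 stood above Spret in all 3 libraries in 4 of the 8, against 38.5% of all tested genes, and Spret above B6 in 1, against 16.7%.

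The call of Wnt5a held under 8 of 9 alternatives and ended with no filter on low values (limma adjusted p = 0.094). The call of Rspo3 ended when ratios were centred within each library (limma adjusted p = 0.155), without library 1 (0.324), without library 3 (0.0645), with no filter (0.209), with limma's trend left off (0.135) and without the library term (0.598).

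The other 6 tested genes did not pass the test, and their intervals bound the ratio. Rspo2 had a log2 ratio of -0.37 (95% interval -0.82 to 0.08) and Bmp7 of -0.40 (-0.99 to 0.19), with B6 above Spret in 3 of 3 libraries for each. Lmx1a was the one hem gene with Spret above B6 in all 3 libraries, at a ratio of 0.44 (-0.08 to 0.96, limma adjusted p = 0.188). Rspo1 had 0.33 (-0.20 to 0.86), Wnt2b -0.30 (-0.93 to 0.33) and Wnt8b -0.30 (-1.13 to 0.54). The median ratio of the tested hem genes was -0.33 and of all tested genes -0.14. With no filter on low values, Bmp4 had a ratio of -0.91 (-2.03 to 0.22) and Wnt3a of -0.10 (-2.16 to 1.96), so the interval of Wnt3a includes 2-fold differences in both directions.

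**Figure D4:**
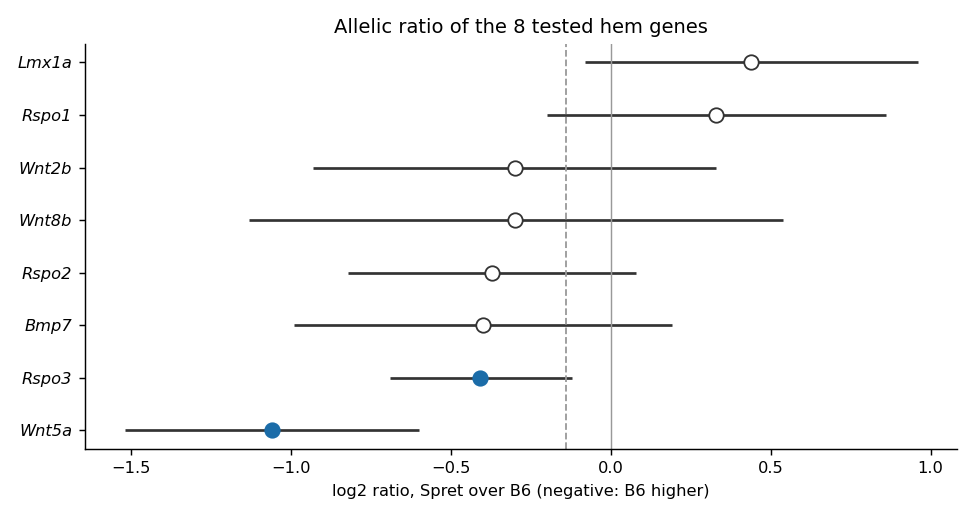
Log2 ratio of Spret to B6 for the 8 tested hem genes with 95% intervals from limma; filled points passed the test, open points did not, the solid line marks equal alleles and the dashed line the median of all tested genes, -0.14. Wnt5a and Rspo3 lie left of 0 with intervals that exclude it, and Lmx1a and Rspo1 lie to the right.

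Among the partners of these signals, calls were found in both directions, as they were over the whole table. Of all tested genes, 22.8% were called toward B6 and 7.56% toward Spret, and the counts below are to be read beside these shares. Of 14 tested Wnt receptors, 3 were higher from Spret and 2 from B6. The Frizzled receptor Fzd1 read 265, 223 and 222 from B6 and 488, 430 and 345 from Spret (log2 ratio 0.82 ± 0.09, limma adjusted p = 3.15e-06), and that call held under all 10 alternatives. Fzd2 stood at 0.63 and the co-receptor Lrp5 at 0.42, while Fzd3 stood at -0.19. Fzd8, the other receptor called toward B6, was named after its value was seen. It stood at -1.01 (limma adjusted p = 0.00438). That call ended with no filter on low values (limma adjusted p = 0.189), without the trend (0.085) and without the library term (0.0513). Lrp6, of highest summed value among those not called, was at -0.18. Of 5 tested secreted Wnt inhibitors 2 were called, both higher from Spret. Dkk3, a Dickkopf family member, read 15, 17 and 12 from B6 and 83, 74 and 85 from Spret (2.39 ± 0.24, limma adjusted p = 1.78e-06). Sfrp4, a secreted Frizzled-related protein, was at 2.49 ± 0.37, and Sfrp1 was not called, at -0.07. None of 5 further Wnt ligands was called, with Wnt7b at 0.10, and none of 5 R-spondin receptors and ligases, with Znrf3 at 0.29.

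Of 7 tested Wnt targets, 4 were higher from B6 and 1 from Spret, against 22.8% and 7.56% of all tested genes. Apcdd1 was at -0.70 ± 0.11, Lef1 at -0.43, Tnfrsf19, a receptor of the tumour necrosis factor family, at -0.32, and Nkd1, an inhibitor of Dishevelled, at 0.48. Axin2 was not called, at 0.05. Among Bmp genes, the ligand Bmp3 read 45, 31 and 39 from B6 and 14, 15 and 7 from Spret (-1.65 ± 0.31, limma adjusted p = 0.00108), the one call among 4 ligands, and Bmp8b was at 0.13. The receptors Bmpr1a, Bmpr2 and Rgma were called toward B6 at -0.44, -0.18 and -0.38, 3 of 8, with Acvr2a at -0.07. The Bmp antagonist Grem1 read 90, 73 and 47 from B6 and 30, 20 and 15 from Spret (-1.65 ± 0.22, limma adjusted p = 4.22e-05), the one call among 7 inhibitors, and Twsg1 was at 0.06. The targets Id2 and Id4 were called in opposite directions, at -0.47 and 0.35, and the other 4 tested targets were not called. Of the patterning factors, Lef1, Zic5, at -0.93, and Dmrta1, at -0.90, were called toward B6. With ratios centred within each library the calls of Lef1, Tnfrsf19, Fzd3, Bmpr2, Rgma and Dmrta1 ended. Without library 1 the calls of Fzd2, Fzd3, Lrp5, Lef1, Nkd1, Tnfrsf19, Bmpr2, Rgma, Id4, Dmrta1 and Zic5 ended (limma adjusted p from 0.0696 to 0.347). Those of Fzd1, Dkk3, Sfrp4, Apcdd1, Bmp3, Bmpr1a, Grem1 and Id2 held with each library left out in turn. With no filter on low values, however, the calls of Sfrp4, Apcdd1, Bmp3, Bmpr1a and Id2 also ended (limma adjusted p from 0.0617 to 0.149). Those of Apcdd1, Bmpr1a and Id2 ended too without the library term and without the trend (limma adjusted p from 0.0646 to 0.184).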

How the data were processed

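RNA was read from 3 organoid libraries. The authors deposited a table of normalised, whole-number read numbers per gene and allele, used here as a score. Per the submitters' processing notes the build was mm10. Alignment, allele assignment, counting and normalisation are not described in the sources used here. All 6 allele columns were used. The value of 1 read was estimated from how often each whole number occurs, which gives about 4.36M, 3.53M and 8.43M allele-assigned reads in libraries 1, 2 and 3. Reads could not be recovered in library 3, so count tests were not used.

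The table was analysed in Python 3.11.15 and R 4.3.3. Ratios were log2(Spret + 1) minus log2(B6 + 1), which understates differences of low genes. Genes averaging at least 10 across those columns, 15985 in all, entered limma 3.58.1 (library and allele as terms, intensity trend, two-sided, Benjamini-Hochberg adjustment over all tested genes, threshold 0.05), with 2 residual and 12.3 prior degrees of freedom. The test was checked on simulated data. Changes were placed there only in genes averaging at least 50, which of the tested hem genes Rspo3 alone reaches, so the check does not cover the others. The pairing comes from the RNA itself: both alleles of a library deviated together across genes at r = 0.201, 0.427 and 0.54. Level and share were described with no test. No intervals were given for shares, since reads are estimated. The hem genes and all lists were chosen with earlier results of these data known. From each list the text names called genes, up to the 4 of highest summed level, and the most abundant gene not called, and exceptions are stated. Some genes of the lists are not reported here.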

Additional observations from a re-analysis of the deposited data

How the results depend on the processing

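Hem genes called toward B6 numbered 2 in the reported fit. The count was 0 with no filter on low values, 1 at a mean of at least 50, where Rspo3 was the one hem gene tested, 1 without limma's trend, 1 with ratios centred within each library, and from 1 to 2 when a library was left out. Without the replicate block, that is with the library term dropped, it was 1, with Wnt5a called (limma adjusted p = 0.0165) and Rspo3 not. No hem gene was called toward Spret under these settings. Without library 3 the uncalled ratios of Rspo1 and Wnt8b changed sign, and the cause was not tested. With a library left out they ran from -0.06 to 0.53 and from -0.65 to 0.31. All genes called numbered 4852, against 1236 with no filter, 1537 without the replicate block, 2229 without the trend and 2667 without library 1.

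From 6 to 8 of the 10 hem genes stood at least 1.5-fold higher in library 1 under the scaling, allele and library alternatives. The median fold of the 8 tested hem genes was 1.92 in the B6 column alone, 1.87 in the Spret column alone and 1.94 to 2.13 with library 3 or 2 left out. Over the same 8 genes the median share difference of library 1 ran from -7.96 to -1.76 points with library 2 or 3 left out, against -6.41. Wnt3a and Bmp4 rest on few estimated reads in every library.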
